A study of Rattus norvegicus with 9 samples.

Results

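The 152 genes described here are abundant transcripts of RN46A cells that were lower in every library of cells exposed to sodium valproate (VPA) than in every other library. They were chosen from the 32662 genes of the count table by their measured values. Each had a mean of at least 50 CPM (the gene's count in a library, scaled by the library's column total) over the 6 lithium and control libraries. All 3 of its VPA libraries lay below all 6 of those libraries, and its VPA mean was at most 0.67 times their mean. Of 4522 genes at 50 CPM or more, 165 (3.65%) met these conditions, and 13 of them were set aside by name (Slc genes and genes such as Fn1, Col1a1, S100a4 and Ccnd1). The conditions used the VPA contrasts themselves, so every difference of a member between VPA and the other libraries is given below as a description and not as a finding. The authors' tables gave a name to 138 of the 152, and the other 14 are known here only by their Ensembl identifiers.

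RN46A is a rat cell line made from embryonic raphe neurons with a temperature-sensitive viral oncogene, so that the cells divide at the lower temperature and differentiate at the higher one. All 9 libraries came from cells grown at 33 °C in 5% serum, kept at 39 °C in 1% serum for 72 h to differentiate, and cultured for another 72 h. During those last 72 h the 3 lithium libraries had 0.5 mM lithium, the 3 VPA libraries had 0.5 mM VPA, and the 3 control libraries neither drug. Polyadenylated RNA was sequenced without strand information. The labels do not say whether the libraries of 1 group are separate cultures. P-values therefore measure the spread between these libraries, which may be technical, in a single immortalised line.

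VPA is a mood stabiliser and antiepileptic that inhibits class I histone deacetylases, enzymes that remove acetyl groups from histone tails and sit in repressor complexes such as NuRD. Acetylated histones mark active genes, yet blocking deacetylases is known to lower many transcripts as well as to raise others. Lithium, a mood stabiliser too, acts on other enzymes, among them glycogen synthase kinase 3 beta and inositol monophosphatase. Named members are described below by role: extracellular matrix, caveolae (the flask-shaped pits of the plasma membrane) and receptors, complement and interferon signalling, metabolism, the cytoskeleton, chromatin, the cell cycle and RNA processing. Matrix, caveolae and vimentin are textbook features of mesenchymal cells, while complement and interferon genes answer to infection and inflammation in most cell types. The roles were assigned by hand after the members' values were seen.

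Library totals ran from 9580591 to 13030300 counts, so 1 count was worth 0.0767 to 0.104 CPM. Differences were called at a Benjamini-Hochberg adjusted p under 0.05 in edgeR's quasi-likelihood test. In VPA against control, 2.99% of the 12719 genes tested were called lower and 5.71% higher, and in VPA against lithium 2.32% and 5.61%. Among the 4522 genes at 50 CPM or more, the shares were 3.38% and 1.22% against control and 2.74% and 0.995% against lithium. All 3 VPA libraries lay below all 6 others for 9.18% of these abundant genes and above them for 5.53%. The mirror image of the rule, with VPA higher, was met by 76 genes, or 1.68% of them. For cell type markers, a name was available only where the authors listed the gene by p-values on these samples. The named markers are therefore not a neutral sample of their lists, and their sums do not show cell identity. Of 14 serotonergic markers, only Maob and Htr5b carried a name. Their summed level was 0.767 to 1.66 CPM in the control and lithium libraries and 6.73 to 10.3 CPM in the VPA libraries. Of 16 neuronal markers 10 were named, and their summed level was 142 to 194 CPM in control, 138 to 173 CPM in lithium and 329 to 477 CPM in VPA libraries. The largest part of that sum was Uchl1, at 80.6 to 131 CPM in control, 76.3 to 106 CPM in lithium and 159 to 265 CPM in VPA libraries. Of 14 fibroblast and mesenchymal markers 6 were named (Col1a1, Col3a1, Dcn, Lum, Pdgfra and S100a4). They summed to 1765 to 3504 CPM in control, 1232 to 2636 CPM in lithium and 497 to 716 CPM in VPA libraries, and most of that sum was S100a4. Lum was at 0 counts in all VPA libraries and in lithium library 3, and Dcn at 0 in VPA library 3. Pdgfra went the other way, at 3.86 to 6.74 CPM in control, 2.41 to 3.49 CPM in lithium and 6.73 to 9.80 CPM in VPA libraries. S100a4, Col1a1 and Col3a1 were among the genes set aside by name. All their VPA values lay below all their control and lithium values. The fall of the summed level is therefore tied to the rule and is no separate observation. Its part in the members' values was not tested.

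Together the members made up 2.81, 2.92 and 3.18% of all counts in control libraries 1, 2 and 3, 2.91, 2.75 and 2.98% in lithium libraries 1, 2 and 3, and 1.69, 1.79 and 1.64% in the VPA libraries. The control and lithium shares overlapped, and the VPA shares lay below both, as the rule required. The ratio of the VPA mean to the mean of the other 6 libraries had a median of 0.588 and ran from 0.226 to 0.669. It was at or below 0.5 for 32 members, between 0.5 and 0.6 for 50, and above 0.6 for 70. Levels in the control and lithium libraries had a median of 114 CPM, with 68 members below 100 CPM, 76 from 100 to 500 CPM and 8 above 500 CPM. The gap between the groups was often narrow: the lowest of the 6 libraries was less than 1.1 times the highest VPA library for 33 members and more than 1.5 times for 24. In bulk RNA, fewer cells of a type and less RNA per cell cannot be told apart.

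**Figure D1:**
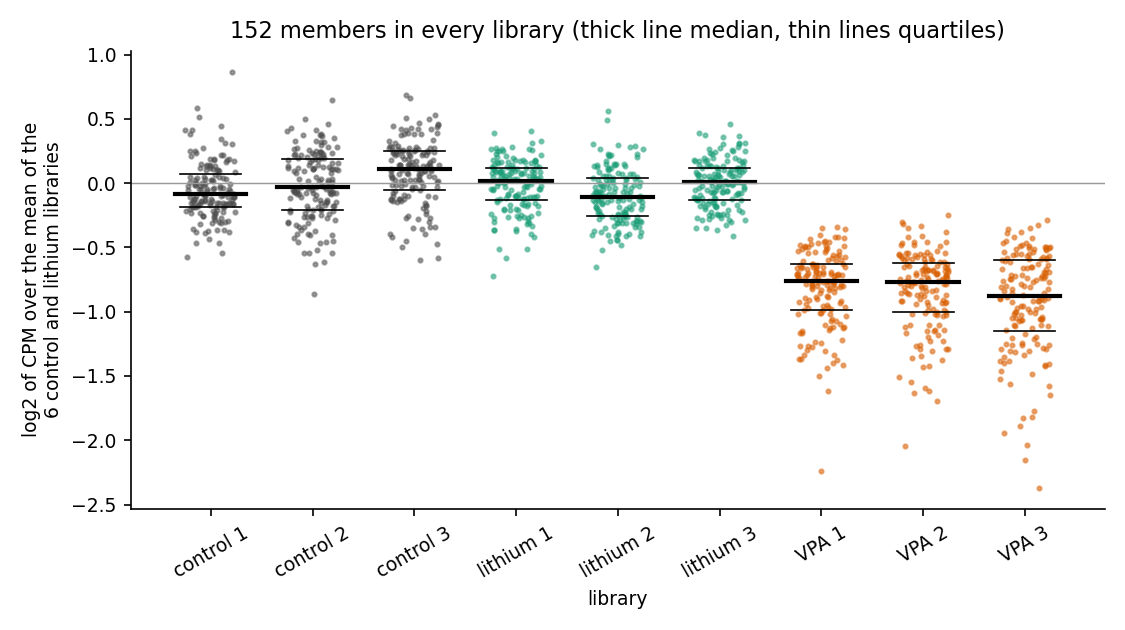
Each point is 1 of the 152 members in 1 library. The vertical axis gives the log2 of its CPM over its own mean in the 6 control and lithium libraries, with thick lines for medians and thin lines for quartiles. Medians of the control and lithium libraries lie between -0.11 and 0.11, and those of VPA libraries 1, 2 and 3 at -0.76, -0.77 and -0.88; the separation was set by the rule.

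By edgeR's quasi-likelihood test, 119 of the 152 members were called lower in VPA than in control, against 2.99% of all genes tested, and 91 were called lower in VPA than in lithium, against 2.32%. The rule used these contrasts, so nothing is read from the counts. Both contrasts called 84 members, and 26 were called in neither although their groups did not overlap. These 26 include Vim, Mmp14, Vcan, Ptprv, Psmb9, Psph, Pycrl and H3f3a, which are described below. The median log2 difference from control was -0.82 over the members, with a range of -2.39 to -0.53, and -0.01 over all genes tested. From lithium it was -0.76, with a range of -1.92 to -0.44. The count of 119 was 53, 66 and 64 when VPA libraries 1, 2 and 3 were left out in turn, and 76 without control library 3. The count of 91 was 45, 53 and 56 without VPA libraries 1, 2 and 3, and 43, 50 and 58 without lithium libraries 1, 2 and 3. Control and VPA libraries with the same number in their titles deviated together. The counts above ignore this pairing. With the replicate number as a block, 144 members were called lower than control. Over all genes the calls lower than control went from 380 to 666. The block fit held all 9 libraries, and lithium numbers paired only in part. Pair by pair, the median ratio of VPA to control was 0.613, 0.576 and 0.508 for numbers 1, 2 and 3, and it was at most 0.5 for 31, 41 and 70 members.

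The member with the lowest ratio was Aqp1 (ENSRNOG00000011648), which encodes a water channel of the plasma membrane. Its level was 169, 152 and 172 CPM in control libraries 1, 2 and 3, 127, 107 and 127 CPM in the lithium libraries and 30.01, 34.5 and 31.9 CPM in the VPA libraries (values are given in this order of libraries throughout). The 3 groups did not overlap: VPA was lowest, lithium intermediate and control highest. The VPA mean was 0.226 times the mean of the other 6 libraries, and the log2 difference between VPA and control was -2.39 ± 0.16 (SE, edgeR). Next came Col8a1 (ENSRNOG00000039668), a short-chain network collagen, at 159, 85.6 and 113 CPM in control, 71.02, 97.5 and 110.3 CPM in lithium and 49.5, 34.6 and 20.5 CPM in VPA libraries. Its control and lithium values overlapped, VPA library 3 was the lowest of all 9, and its ratio was 0.328. Nr2f1 (ENSRNOG00000014795) encodes an orphan nuclear receptor, also called COUP-TFI, that patterns the developing nervous system. It stood at 129, 98.8 and 135 CPM in control, 116, 92.2 and 116 CPM in lithium and 44.1, 36.9 and 32.4 CPM in VPA libraries. Its lowest control or lithium value was more than 2 times its highest VPA value, and the ratio was 0.330, with a log2 difference from control of -1.72 ± 0.18 (SE).

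**Figure D2:**
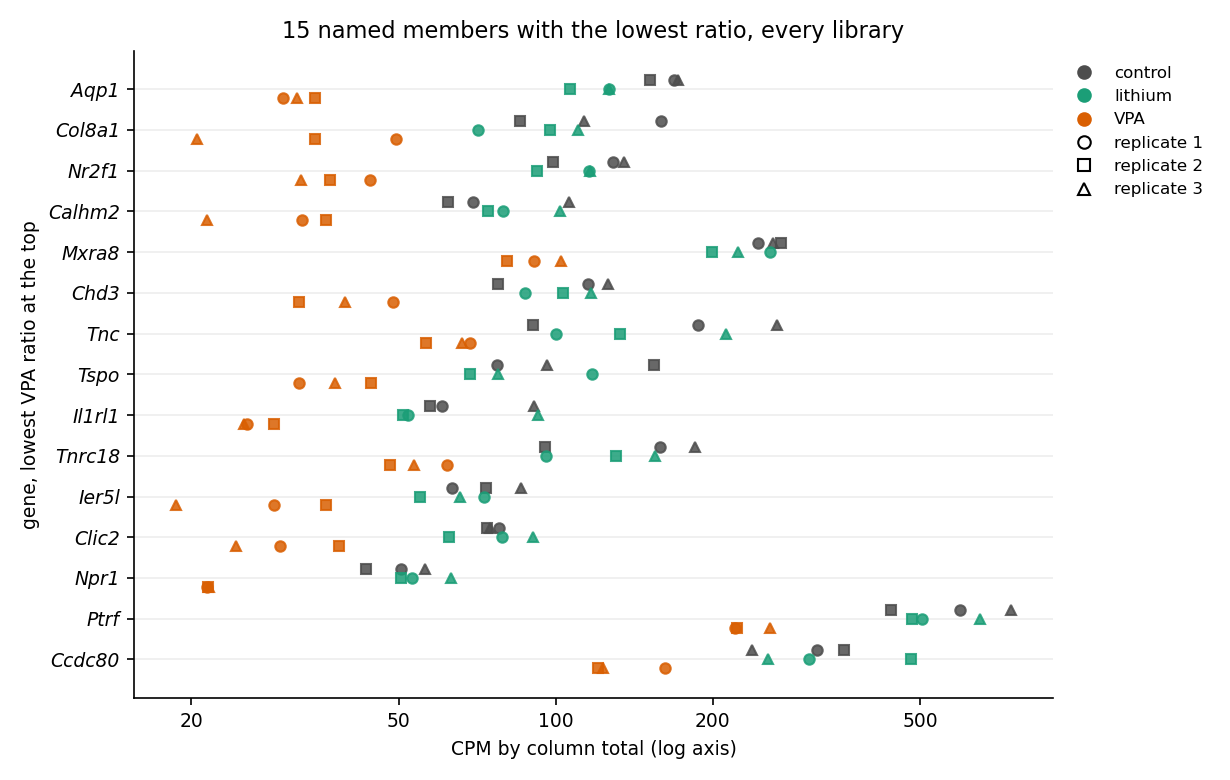
CPM by column total (horizontal log axis) of the 15 named members with the lowest ratio, 1 point for each library, with colour for the group and shape for the replicate number. Aqp1, at the top, has VPA values of 30.01 to 34.5 CPM and no overlap between any groups, whereas the control and lithium points of Col8a1 are mixed.

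Members share a lower level in the VPA libraries by the rule, which did not ask that they vary together across libraries. Their promoters were examined in RefSeq's table for the rat assembly GRCr8, which held 99 of the 152 by symbol. The 250 bases before the annotated start are printed for the 3 members just described, 5′ to 3′ on the gene's strand, with GGGCGG (a GC box, CCGCCC on the other strand) and TATAAA on the gene's own strand in capitals. Aqp1 lies at chr4:85812534-85812783 on the plus strand, Col8a1 at chr11:56246532-56246781 on the plus strand and Nr2f1 at chr2:9785925-9786174 on the minus strand.
Aqp1: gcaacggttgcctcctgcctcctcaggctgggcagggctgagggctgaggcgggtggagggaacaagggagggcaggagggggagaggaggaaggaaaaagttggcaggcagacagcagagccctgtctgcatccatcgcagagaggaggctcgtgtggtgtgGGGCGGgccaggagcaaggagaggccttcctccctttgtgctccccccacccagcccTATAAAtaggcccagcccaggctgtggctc
Col8a1: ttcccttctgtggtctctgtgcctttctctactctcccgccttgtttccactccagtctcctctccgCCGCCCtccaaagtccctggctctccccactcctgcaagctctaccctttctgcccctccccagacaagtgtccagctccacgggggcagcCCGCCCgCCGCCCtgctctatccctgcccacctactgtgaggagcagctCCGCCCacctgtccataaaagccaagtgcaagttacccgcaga
Nr2f1: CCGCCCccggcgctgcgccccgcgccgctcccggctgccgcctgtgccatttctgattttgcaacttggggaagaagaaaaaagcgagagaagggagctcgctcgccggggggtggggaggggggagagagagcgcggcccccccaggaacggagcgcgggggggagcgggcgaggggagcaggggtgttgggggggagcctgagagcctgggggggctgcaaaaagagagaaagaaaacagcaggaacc
Aqp1 has 1 GC box, 87 bases before the start, and a TATAAA 30 bases before it. Col8a1 has 4 GC boxes, at 183, 92, 85 and 43 bases before the start, and Nr2f1 has 1, at 250 bases. The 250 bases held 5 CpG dinucleotides in Aqp1, 9 in Col8a1 and 20 in Nr2f1, so the 3 members with the lowest ratios differed in CpG number and in TATAAA.

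Over whole promoter windows of 300 bases (250 before the start and 50 after it), the members had a median GC content of 62.3% and a median of 20 CpG. All 24206 promoters of the table had medians of 52.7% and 8, and 100 other named genes at 50 CPM or more had 64.7% and 22.5. These 100 are called the other abundant genes below. They have a name because the authors listed them by p-values on these samples, so they are not a neutral sample of abundant genes. A GC box (GGGCGG on either strand) was in 71.7% of member promoters, 35.9% of all promoters and 71% of those other abundant genes. CCCTCCCC on either strand was in 24.2% of member promoters, 10.4% of all and 22% of the other abundant genes. For both motifs the members were thus closer to these 100 named genes than to all promoters. TATAAA on either strand was in 14.1% of members, 14.3% of all and 10% of the other abundant genes. TGACTCA, the letters that AP-1 factors bind, was in 2.02% of members, 4.53% of all and 8% of the other abundant genes. It was in 12.8% (5 of 39) of the promoters held for genes that met the mirror image of the rule, with VPA higher. Such genes may be among the other abundant genes, so the 8% is no level of ordinary abundant genes. GAAA followed by any 2 bases and GAAA again, on either strand, the core of the element bound by interferon-activated factors, was in 4 of the 99 member promoters, or 4.04%, against 3.74% of all promoters and 4% of the other abundant genes. Of the other motifs, CCAAT was in 34.3% of member promoters, 37.8% of all and 39% of the other abundant genes. GGAATG (bound by TEAD factors) was in 11.1%, 13.7% and 11% in the same order, and TGATGNAA (an amino acid response element) in 2.02%, 3.74% and 2%. TTTCCCGC (bound by E2F factors) was in 3.03%, 1.07% and 2%, and TTTGAA (a cell cycle element) in 15.2%, 18.1% and 15%. A match is only a description of the letters. The 4 windows, of 30 bases each with the match in capitals, are printed because 3 of these genes (Gbp2, Irf7 and Lgals3bp) are known to be induced by interferons. They lie at chr2:234005686-234005715 on the plus strand (Gbp2), chr1:94934128-94934157 on the plus strand (Hspb6), chr1:205800073-205800102 on the minus strand (Irf7) and chr10:104127879-104127908 on the minus strand (Lgals3bp), and start their match 31, 234, 69 and 50 bases before the start of the gene.
Gbp2: agttttttagTTTCACTTTCattgtcttaa
Hspb6: tccccttctaGAAATGGAAAaaggcttaat
Irf7: acagtttaggTTTCATTTTCccgagacgca
Lgals3bp: gtgttttctgGAAATCGAAActagactagg

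The 17 members that encode matrix and secreted proteins had the lowest median ratio of the roles, 0.497, with a range of 0.328 to 0.666, and 9 of them were at or below 0.5. Their summed level was 3113 to 3899 CPM in control, 3056 to 3434 CPM in lithium and 1660.2 to 1872 CPM in VPA libraries. Besides Col8a1 they include Mxra8, an adhesion protein of the cell surface, at 244, 270.4 and 262 CPM in control, 257, 199.8 and 223 CPM in lithium and 90.9, 80.7 and 102 CPM in VPA libraries. Mxra8 varied little within each group, and its ratio was 0.376. Tnc (tenascin-C, an adhesion-modulating glycoprotein) was far more spread: 187, 90.5 and 265 CPM in control, 99.97, 133 and 212 CPM in lithium and 68.3, 56.3 and 66.1 CPM in VPA libraries. Control library 2 was the lowest control for Tnc and control library 3 the highest, so its ratio of 0.386 averages uneven controls. Ccdc80, a secreted matrix-binding protein, was highest in lithium library 2, with 317, 357 and 238 CPM in control, 306, 481 and 255 CPM in lithium and 162, 121 and 123 CPM in VPA libraries.

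Secreted modulators of growth factor signalling were among them too. Igfbp4, which binds insulin-like growth factors, averaged 92.8 ± 7.87 CPM in control, 84.4 ± 6.34 CPM in lithium and 37.9 ± 4.71 CPM in VPA libraries (SD, n = 3 each). Angptl2, an angiopoietin-like glycoprotein, averaged 196 ± 41.5, 149 ± 14.02 and 75.5 ± 2.97 CPM in the same order. Pdgfc, a platelet-derived growth factor, averaged 156 ± 24.3, 127 ± 6.04 and 70.2 ± 18.2 CPM. In all 3 genes the lithium mean lay between the other means, nearer to control than to VPA. Fst (follistatin), which binds and neutralises activins, had control values of 128, 84.7 and 168 CPM and a highest VPA value of 75.03 CPM beside a lowest lithium value of 81.6 CPM. Matrix enzymes were represented by Mmp14 and Mmp16, membrane-bound metalloproteinases, by Loxl3, a lysyl oxidase that cross-links collagen, and by Pcolce, which enhances the cleavage of procollagen. Their ratios were 0.562, 0.428, 0.592 and 0.645 for Mmp14, Mmp16, Loxl3 and Pcolce. Mmp14 barely met the rule, with a lowest control value of 140.60 CPM and a highest VPA value of 140.56 CPM. It was called in neither VPA contrast. Vcan (versican, a large proteoglycan) was among the 3 named members with the widest spread within a group, at 251, 115 and 107 CPM in control, 116, 124 and 111 CPM in lithium and 99.5, 72.7 and 90.9 CPM in VPA libraries. Control library 1 was more than 2 times every other library for Vcan, which weighs in its ratio of 0.638.

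Of the 98 genes on a general list of matrix and matrix-processing genes, 34 had a name, 33 were tested and 8 were members. Of those tested, edgeR called 17 lower and 7 higher in VPA than in control, and 8 lower and 7 higher in VPA than in lithium. Names exist here only for genes that the authors listed by p-values on these samples, which means that these numbers are not independent evidence of direction. The median log2 difference of the list from control was -0.88, against -0.01 over all genes tested.

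The 16 members of the plasma membrane, caveolae, channels and receptors had a median ratio of 0.520, and 7 were at or below 0.5. Ptrf (cavin-1) and Prkcdbp (cavin-3) encode coat proteins of caveolae. Ptrf was at 597, 440.4 and 747 CPM in control, 504, 482 and 652 CPM in lithium and 221, 223 and 258 CPM in VPA libraries, a ratio of 0.410. Prkcdbp was at 282, 516 and 536 CPM in control, 412, 316 and 408 CPM in lithium and 171, 257 and 209 CPM in VPA libraries, a ratio of 0.515. Control library 1 was the lowest of the 6 for Prkcdbp and exceeded the highest VPA library only narrowly, whereas for Ptrf even the lowest control lay well above all VPA libraries. Npr1, the guanylyl cyclase receptor of atrial natriuretic peptide, had nearly equal VPA values of 21.4, 21.5 and 21.6 CPM, below control values of 50.4, 43.3 and 56.2 CPM. Calhm2, of a family of large-pore channels, was at 69.5, 62.00 and 106 CPM in control, 79.2, 74.2 and 102 CPM in lithium and 32.6, 36.2 and 21.4 CPM in VPA libraries. Its VPA library 3 was the lowest, and number 3 was the highest in both other groups. Clic2 and Clic1 encode chloride intracellular channel proteins and differed in ratio, 0.403 for Clic2 and 0.657 for Clic1. Clic1 averaged 567 ± 95.8 CPM in control and 352 ± 31.3 CPM in VPA libraries (SD, n = 3). Ptprv, a receptor-type tyrosine phosphatase, was among the most spread named members, at 117, 167 and 85.3 CPM in control, 127, 181 and 97.3 CPM in lithium and 62.9, 78.2 and 31.5 CPM in VPA libraries. In each of its groups library 2 was highest and library 3 lowest.

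**Figure D3:**
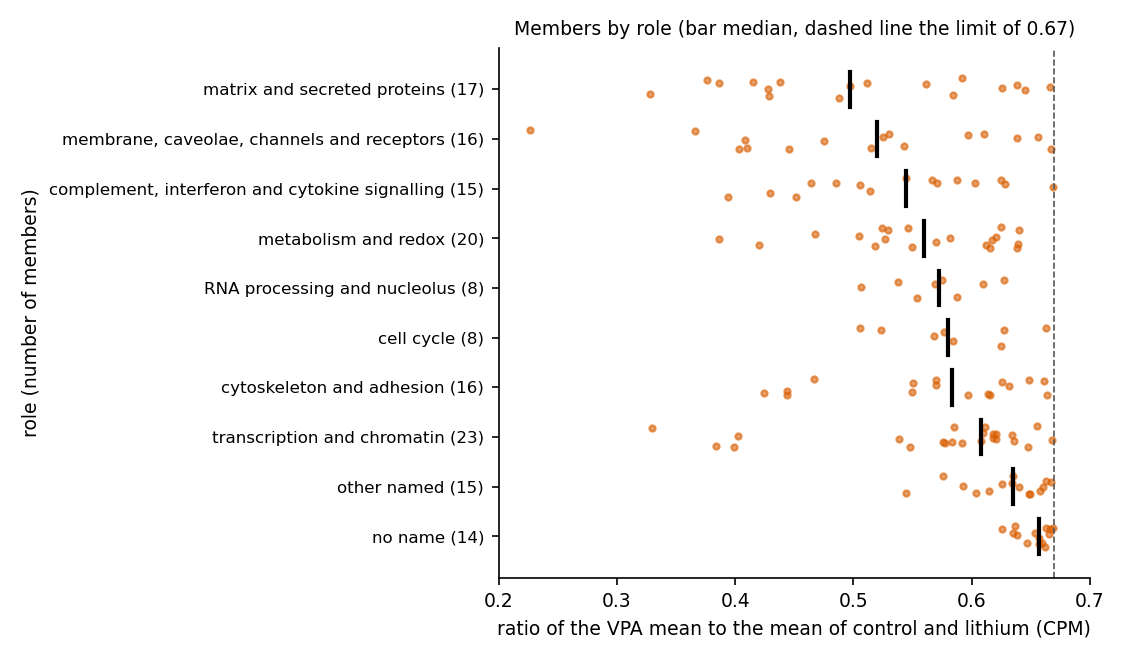
Each point is 1 member, placed by the ratio of its VPA mean to the mean of the 6 control and lithium libraries (horizontal axis) and by its role, with the number of members in brackets. Black bars are medians, from 0.497 for matrix and secreted proteins to 0.635 for the other named members and 0.657 for those without a name. The dashed line is the rule's limit of 0.67, and the groups overlap widely.

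Complement, interferon and cytokine signalling held 15 members with a median ratio of 0.544 and a range of 0.394 to 0.669. C1r and C1s are the proteases of the first complement component and neighbours on rat chromosome 4. C1r was at 290.4, 239 and 354 CPM in control, 239, 194 and 269 CPM in lithium and 118, 109.8 and 140.3 CPM in VPA libraries. C1s was lower throughout, at 114, 86.2 and 105 CPM in control, 81.1, 69.3 and 85.5 CPM in lithium and 44.5, 41.00 and 46.1 CPM in VPA libraries. The neighbours had similar ratios, 0.464 and 0.486, and in both the lithium mean was below the control mean. Il1rl1, the receptor chain for interleukin 33, had 60.5, 57.5 and 90.9 CPM in control, 52.03, 50.9 and 92.6 CPM in lithium and 25.6, 28.8 and 25.2 CPM in VPA libraries. Library 3 was the highest in control and in lithium but not in VPA.

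Interferon-inducible members were Irf7, the transcription factor that amplifies type I interferon, Gbp2, a guanylate-binding protein, Lgals3bp, a secreted galectin ligand, and Psmb9, a subunit of the immunoproteasome. Their mean levels were 56.4 ± 8.76, 129.5 ± 27.1, 196 ± 21.6 and 108 ± 22.1 CPM in control libraries (SD, n = 3). In VPA libraries they were 28.2 ± 2.92, 68.6 ± 11.4, 101 ± 10.5 and 69.4 ± 7.18 CPM. Psmb9 was closest to overlap, with a lowest control value of 89.98 CPM and a highest VPA value of 77.7 CPM. Gsdmd, the pore-forming protein of pyroptosis, and Parp10, a mono-ADP-ribosyltransferase, had the low ratios of 0.430 and 0.452. Receptors and adaptors included Il6r (the interleukin 6 receptor), Ltbr (the lymphotoxin beta receptor), Stat6, Irak1 and Card9, with ratios of 0.571, 0.669, 0.603, 0.629 and 0.566. Gbp2 belongs to a family of similar copies that can share reads, so its value is uncertain. Of a list of 64 interferon and antigen presentation genes, 24 had a name, 22 were tested and 6 were members. In VPA against control 17 were called lower and 2 higher, with a median log2 difference of -1.02. Over all genes tested the shares were 2.99% lower and 5.71% higher. In VPA against lithium 14 were lower and 0 higher, beside 2.32% and 5.61% of all genes tested. The names came from the authors' lists by p-values on these samples, and the 6 members were chosen for low VPA values. These counts are therefore not independent evidence of direction. The summed level of the 24 did not separate the groups, at 2383 to 2404 CPM in control, 2166 to 2657 CPM in lithium and 2246 to 2798 CPM in VPA libraries.

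The 20 members of metabolism and redox had a median ratio of 0.560. Phgdh, which catalyses the first step of serine synthesis from glucose, was at 380.4, 603 and 426 CPM in control, 564, 446 and 388 CPM in lithium and 286, 255 and 195 CPM in VPA libraries. Psph, which catalyses the last step, was at 52.01, 76.7 and 65.2 CPM in control, 67.9, 63.6 and 64.6 CPM in lithium and 49.1, 36.3 and 21.7 CPM in VPA libraries. Their ratios were 0.525 and 0.549, and in both genes VPA library 1 was the highest VPA value, close to the lowest control value in Psph. Related enzymes were Pck2, the mitochondrial enzyme that makes phosphoenolpyruvate (0.527), Pycrl of proline synthesis (0.617), Aass of lysine breakdown (0.640) and Csad of taurine synthesis (0.625), each with its ratio in brackets. Of the 13 named genes on a list of lipid and amino acid metabolism, 4 were called lower and 5 higher in VPA than in control. Over all genes tested the shares were 2.99% and 5.71%. The other genes of that list of 60 had no name and were not examined. Names came from the authors' lists by p-values, so these counts are not independent evidence of direction.

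Tspo, the translocator protein of the outer mitochondrial membrane, had the lowest ratio of the role, 0.386. It was at 77.04, 154 and 96.4 CPM in control, 117, 68.6 and 77.4 CPM in lithium and 32.2, 44.3 and 37.7 CPM in VPA libraries. Control library 2 was the highest by far, and lithium library 1 came next. Mgst2, a microsomal glutathione transferase, averaged 498 ± 92.3 CPM in control, 406 ± 85.9 CPM in lithium and 228 ± 42.5 CPM in VPA libraries (SD, n = 3 each). Gpx1, the cytosolic glutathione peroxidase, had VPA values of 81.1, 77.03 and 78.3 CPM and control values of 117, 189.6 and 151 CPM, so its VPA libraries were far closer to each other than its controls. Mgst2 is of a family with similar copies, and its value is uncertain.

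The cytoskeleton and adhesion role had 16 members and a median ratio of 0.584. It held the most abundant member, Vim, the intermediate filament protein of mesenchymal and immature neural cells, at 3837, 4115 and 4993 CPM in control, 3876, 3919 and 4456 CPM in lithium and 2249, 3341 and 2373 CPM in VPA libraries. VPA library 2 stood above the other VPA libraries for Vim but below every control and lithium library. Vim was called in neither VPA contrast. Stmn1, a microtubule-destabilising protein, varied little within groups, with 947, 937 and 901 CPM in control, 1092, 979.7 and 926 CPM in lithium and 565, 623 and 587 CPM in VPA libraries and a ratio of 0.614. The lowest ratios of the role were those of Efs, an adaptor of Src-family signalling (0.424), Hspb6, a small heat shock protein (0.444), Dmpk, a serine/threonine kinase (0.444), and Krt7, a keratin of simple epithelia (0.467). Hspb6 averaged 57.3 ± 11.6 CPM in control and 25.4 ± 1.78 CPM in VPA libraries (SD, n = 3), and it overlaps Lin37 in the annotation, whose reads cannot be told apart without strand. Focal adhesion proteins were Parva (parvin alpha), Tns3 (a tensin) and Fhl2, with ratios of 0.550, 0.626 and 0.570. Amotl2, the only member on a list of SRF and YAP target genes, averaged 114 ± 23.01 CPM in control and 74.4 ± 1.57 CPM in VPA libraries.

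Transcription and chromatin was the largest role, with 23 members, but its median ratio of 0.608 was among the higher ones. Chd3 and Mbd3 encode subunits of NuRD, the remodelling complex that contains histone deacetylases. Chd3 was at 115, 77.6 and 126 CPM in control, 87.4, 103 and 117 CPM in lithium and 48.8, 32.2 and 39.4 CPM in VPA libraries, a ratio of 0.384. Mbd3 was at 76.7, 106 and 116 CPM in control, 103, 69.9 and 99.1 CPM in lithium and 51.7, 54.6 and 67.4 CPM in VPA libraries, a ratio of 0.610, and its lithium library 2 was only narrowly above VPA library 3. Chd3 overlaps Naa38 in the annotation. Tnrc18 and Ier5l, with ratios of 0.399 and 0.403, completed the 4 members of the role at or below 0.5. Tnrc18 ranged from 95.4 to 185 CPM in control and from 48.1 to 61.8 CPM in VPA libraries. Other chromatin regulators were Setd1a, a methyltransferase of histone H3 lysine 4 (0.618), Phf19, an accessory protein of Polycomb repressive complex 2 (0.548), and Phf10, a subunit of a SWI/SNF complex (0.583). Hmgn2, a nucleosome-binding protein, was the most abundant of the role, at 474, 481 and 417 CPM in control, 608, 515 and 537 CPM in lithium and 344, 309 and 308 CPM in VPA libraries. All lithium values of Hmgn2 exceeded all control values, and its log2 difference between VPA and lithium was -0.81 ± 0.16 (SE), against -0.56 ± 0.16 between VPA and control. Tcf3, an E-protein partner of tissue-specific helix-loop-helix factors, averaged 213 ± 20.9 CPM in control and 129.8 ± 4.15 CPM in VPA libraries (SD, n = 3). H3f3a, a gene for histone H3.3, varied widely in control, at 203, 266 and 145 CPM, and shares near-identical copies with other loci, as does Hmgn2, so both values are uncertain.

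Cell cycle members numbered 8, with a median ratio of 0.580. Cdkn2b, an inhibitor of cyclin D-dependent kinases, was among the most abundant members, at 954, 1007 and 932 CPM in control, 971, 898 and 899.5 CPM in lithium and 702, 615 and 452 CPM in VPA libraries. Its control and lithium values were close together, and VPA library 3 was the lowest. Tk1, the thymidine kinase of dividing cells, was at 177, 218 and 254 CPM in control and 112, 101 and 127 CPM in VPA libraries. Cdc20, the activator of the anaphase-promoting complex, was at 192, 247 and 219 CPM in control and 108, 100.3 and 169 CPM in VPA libraries, where library 3 was highest. Members therefore include both a cell cycle inhibitor and genes of proliferating cells. Of the 10 named genes on a cell cycle list, 6 were called lower and 2 higher in VPA than in control. Over all genes tested the shares were 2.99% and 5.71%. Of these 10 genes, 4 are members, and all 10 were named through the authors' lists by p-values. The counts are therefore not independent evidence of direction.

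RNA processing and the nucleolus had 8 members with a median ratio of 0.572 and none at or below 0.5. Nop56, a core protein of nucleolar C/D ribonucleoproteins, averaged 177 ± 32.8 CPM in control, 191 ± 35.1 CPM in lithium and 99.2 ± 20.7 CPM in VPA libraries (SD, n = 3 each). Zfp36l1, which binds AU-rich elements and promotes mRNA decay, averaged 95.3 ± 14.9, 103 ± 19.8 and 50.2 ± 12.5 CPM in the same order. Pwp2, a protein of the small-subunit processome, varied little within control and lithium, at 56.5, 57.1 and 55.3 CPM in control, 57.8, 57.01 and 55.4 CPM in lithium and 34.1, 35.4 and 28.01 CPM in VPA libraries. The splicing factors Srsf7 and U2af2 had ratios of 0.554 and 0.610. Nop56 overlaps Idh3b, and in all 26 members overlapped another protein-coding gene in the RefSeq table, so part of their counts may belong to the neighbour. Hdgf, a nuclear growth factor counted with the secreted proteins, was among the 10 most abundant named members at a mean of 411 ± 66.4 CPM in control and 259 ± 14.1 CPM in VPA libraries.

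The 15 other named members had a median ratio of 0.635. Cc2d1b had the lowest, 0.545, and Trim47, a ubiquitin ligase of the tripartite motif family, was at 0.576. Psmc3, an ATPase subunit of the proteasome, was the most abundant of them, at 312, 431 and 394 CPM in control, 395, 327 and 378 CPM in lithium and 234, 215 and 261 CPM in VPA libraries. Its VPA values lay below all others, but the lowest control was less than 1.5 times the highest VPA value. The 14 members without a name had ratios of 0.626 to 0.669, all in the upper part of the members' range. A member lacks a name only where the authors' lists by p-values did not hold it. Their high ratios are therefore tied to how names arose and are no trait of these genes. Of the 14, 3 were called lower than control and 5 lower than lithium, beside 2.99% and 2.32% of all genes tested. ENSRNOG00000016299 had the widest spread within a group of all members, at 105, 112 and 37.5 CPM in VPA libraries, where library 3 stood far below the other two. ENSRNOG00000014453, also without a name, was the second most abundant member, with 1087, 998 and 1597 CPM in control libraries and 668, 870 and 811 CPM in VPA libraries.

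The contrast between lithium and control played no part in the choice of members beyond both groups lying above VPA, and it is the one in which they could be tested. No member was called: edgeR's quasi-likelihood test gave 0 calls among the 152, against 0.0% of the 12719 genes tested in either direction, and every adjusted p among the members was 1. At an unadjusted p under 0.05 there were 4 members, while 116 genes, or 0.912% of those tested, reached that level by edgeR and 113 by DESeq2, which also made 0 calls. Most members nevertheless had lower estimates with lithium: the log2 difference was below 0 for 104 of 152, or 68.4%, against 49.6% of all genes tested and 50.1% of genes at 50 CPM or more. The differences were small, with a median of -0.07 and a range of -0.49 to 0.33, and the median standard error of a member was 0.20. This count was chosen after its value was seen, and members share libraries, so it carries no test.

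That majority depended on individual libraries. Without lithium library 2 the log2 difference was below 0 for 84 members, or 55.3%, and without control library 3 for 87, or 57.2%. Without control library 1 it was below 0 for 117, or 77.0%. Scaling by library totals gave 92 of 152, while all genes then had 43.1% below 0. Among the 6 control and lithium libraries, lithium library 2 was the lowest for 32.2% of members but for 14.9% of genes at 50 CPM or more. Control library 3 was the highest for 34.9% of members and for 28.1% of those genes. Control library 2 was the lowest for 19.7% of members, below the 32.9% of abundant genes.

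**Figure D4:**
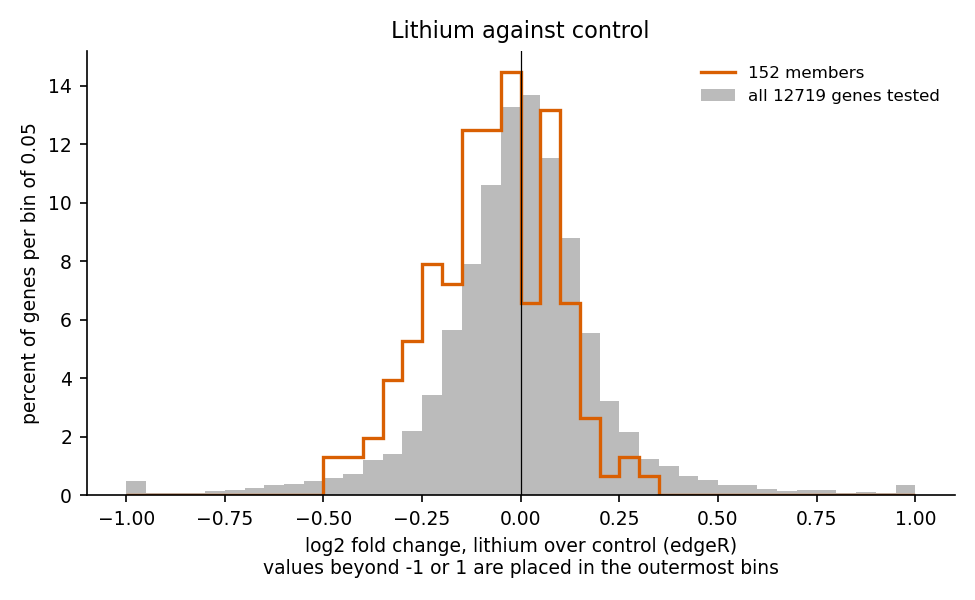
Histogram of the log2 fold change of lithium over control from edgeR (horizontal axis, bins of 0.05) for all 12719 genes tested (grey bars) and the 152 members (orange line), each as a percent of its own total. The members' median is -0.07 and that of all genes 0.00, both close to 0. The members lack the tails beyond -0.5 and 0.35. All members had at least 50 CPM, which only 4522 of the 12719 genes did, and the rule kept all their control and lithium values above VPA. The part of these limits in the missing tails was not tested.

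The member with the smallest p was again Aqp1, with a log2 difference between lithium and control of -0.47 ± 0.15 (SE), an unadjusted p of 0.0102 and an adjusted p of 1 by edgeR's quasi-likelihood test. Its 3 lithium values lay below all 3 control values. C1s followed at -0.39 ± 0.16 (unadjusted p = 0.0276, edgeR), Angptl2 at -0.41 ± 0.17 (unadjusted p = 0.0358, edgeR) and Chst2, a carbohydrate sulfotransferase, at -0.49 ± 0.22 (unadjusted p = 0.0466, edgeR), all with an adjusted p of 1. The fifth was St6galnac2, a sialyltransferase, which was higher with lithium by 0.33 ± 0.17 on the log2 scale (unadjusted p = 0.0753, edgeR, adjusted p = 1). St6galnac2 was at 53.5, 50.8 and 55.8 CPM in control, 72.6, 65.5 and 66.7 CPM in lithium and 31.1, 31.8 and 43.4 CPM in VPA libraries. Lithium was thus the highest group of St6galnac2 and VPA the lowest, with no overlap among the 3 groups. All lithium values were below all control values for 6 members (Aqp1, C1s, Pdgfc, Aass, Col16a1 and Fhod1, named for this pattern) and above them for 3, against 0.597% and 1.48% of the 4522 abundant genes. By role, 15 of the 17 matrix and secreted members and 18 of the 23 transcription and chromatin members had a lithium estimate below control. So did 15 of 20 in metabolism, 12 of 15 other named, 11 of 15 in complement, 11 of 16 in the cytoskeleton and 5 of 8 in the cell cycle. The counts were 7 of 16 for membrane, 4 of 8 for RNA processing and 6 of 14 without a name. The share was 68.4% of all members and 49.6% of all genes tested. Roles were assigned after values were seen, and these counts were not repeated with libraries left out.

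The authors' own tables, made from the same samples, listed most members. The authors' deposited DESeq2 table for VPA held 135 of the 152, all lower, among its 1212 lines, of which 446 were lower. The authors' deposited Salmon and sleuth table held 127 transcripts of 123 members, all lower with VPA. Il1rl1, Tcf3, Mxra8 and Tnrc18 each had several transcripts there, and for Mxra8 the authors' deposited table gave ratios of 0.343 and 0.287 to control for 2 transcripts. The authors' deposited Cufflinks table held 94 members, all lower with VPA. Its control values, in FPKM, a scale corrected for transcript length and depth, ran from 9.90 to 2657 with a median of 47.6. On that scale of the authors' deposited table, Mgst2 was the highest member, at 2657 FPKM in control and 1088 FPKM in VPA, and Aqp1 was at 60.7 FPKM in control and 11.04 FPKM in VPA. The authors' deposited lithium table listed 7 members among 137 lines, 6 of them lower with lithium, beside 93 of all 137 lines, at an adjusted p that rounds to 1. None of these tables is independent of the rule where it concerns VPA.

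Near the limits of the rule, membership turned on small differences. Ltbr, Irf2bpl and Rab13 were the named members closest inside the ratio limit, at 0.669, 0.668 and 0.667. Tfdp1, Pmf1 and Mgat1 were closest outside it, at 0.671, 0.672 and 0.673. Toe1, an exonuclease that trims small RNAs, was the member nearest the level minimum at 50.1 CPM, and Parp9 just missed it at 48.8 CPM with a ratio of 0.513. Of the abundant genes, 49 met the ratio but had overlapping groups, and 250 had VPA below all other libraries at a ratio above the limit. With TMM-scaled CPM 180 genes met the rule, of which 149 were among the 152, and with median-ratio scaling 181 did, of which 148 were. Against control libraries alone, 170 genes met it and 141 were among the 152.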

How the data were processed

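The 152 genes and the gene lists were chosen with earlier results of these data known. The authors deposited raw counts per Ensembl gene for 3 control, 3 lithium and 3 VPA libraries, with library totals from 9580591 to 13030300. Group and replicate number came from the sample titles. The submitters' processing notes name DESeq2, sleuth, Cufflinks 2.2.1, STAR 2.5.1, Salmon 0.6.1, kallisto 0.42.4 and CASAVA 1.8, and do not say which made what. The genome build was not given in the sources used here. Names for 1384 identifiers came from the authors' tables.

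Per the file headers, the authors' deposited DESeq2 tables give log2 fold changes, p-values and mean normalized counts (a signal, not used). The deposited Cufflinks table gives 1 FPKM value per group. Transcript effects in the deposited sleuth table are in natural log units, and were turned into ratios here. A further table that repeats the VPA table in 1212 lines was not used.

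CPM used column totals. Counts were fitted by edgeR 4.0.16 (run under R 4.3.3) using TMM factors (which correct library totals for composition), filterByExpr with a minimum count of 10 (all 152 members passed), and a robust quasi-likelihood fit over all 9 libraries with 6 residual degrees of freedom. Tests were two-sided with Benjamini-Hochberg adjustment over 12719 genes and a threshold of 0.05, and the script was checked on simulated counts. The biological coefficient of variation was 0.22. Alternatives were DESeq2 1.42.0, median-ratio and total scaling, no filter, the 2 groups of a contrast alone, the replicate number as a block, leaving out each library, and other limits and scalings of the membership rule. After the data were seen, the number of members lower with lithium was added to them.

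The title numbers were checked as pairs over 10288 genes at 5 CPM or more. Deviations from the group means correlated at 0.600, 0.533 and 0.525 between control and VPA libraries of the same number, but at -0.418, -0.0815 and 0.801 between control and lithium and at -0.181, 0.0530 and 0.538 between lithium and VPA. Control and VPA numbers were therefore taken as pairs for the ratios given pair by pair, although the labels state no pairing. The main fit used group means without pairing, so its standard errors, p-values and calls ignore it.

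The genes named are, among members with a name, the 15 with the lowest ratio, the 10 most abundant, the 5 with the smallest p for lithium, up to 5 members of each of 23 gene lists, the 3 nearest to each limit of the rule and the 3 with the widest spread in a group. Other genes named to illustrate a role were chosen after their values were seen. Of the members, 134 matched a gene and 99 a promoter in RefSeq's GRCr8 tables, by symbol. Motifs were counted in windows of 300 bases on both strands.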

Additional observations from a re-analysis of the deposited data

How the results depend on the processing

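The number of members was 152. It was 84 with a minimum of 100 CPM, 32 with a ratio limit of 0.5, and 149 to 207 when 1 library was left out. Over all genes, edgeR called 1106 in VPA against control and 1009 in VPA against lithium. With the replicate number as a block these became 1741 and 1609, and leaving out 1 library gave 638 to 1026 and 544 to 1197. Members called lower than control numbered 119, and 53 to 110 when 1 library was left out. Members called lower than lithium numbered 91, and 43 to 103 when 1 library was left out. The cause of these changes was not tested, and leaving out a library also lowers the number of samples. Under DESeq2, other scalings, no filter, the replicate block and the 2 groups alone, members called lower than control numbered 85 to 145 and those lower than lithium 88 to 131. Lithium against control gave 0 calls under every setting tried, with 116 genes at an unadjusted p under 0.05 by edgeR and 113 by DESeq2. Members with a lithium estimate below control numbered 84 to 117 with 1 library left out and 92 to 108 under the other settings. Of 825 values of named genes in VPA against control, 683 stayed on the same side of the threshold, 106 lost the call, 36 gained it and 0 changed direction. Lithium numbers did not all pair with control or VPA numbers (only number 3 did with both), so the block lacks that basis for the lithium libraries. The block fit held all 9 libraries, so this limit also reaches its calls in VPA against control. With 9 libraries and a median standard error of 0.20 on the log2 scale, small lithium effects on single members were not detectable.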
